A study of Homo sapiens with 12 samples.

Results

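RNA of the kinase P-TEFb, of the proteins that hold it inactive on 7SK RNA and of the activators that carry it to RNA polymerase II was followed in a human embryonic kidney line after knockdown of TAF5. The 9 genes were taken by name from a table of 32010 genes: *CDK9*, *CCNT1* and *CCNT2* (P-TEFb), *HEXIM1*, *LARP7* and *MEPCE* (the 7SK particle), and *AFF4*, *ELL* and *ELL2* (the super elongation complex). Each name matched 1 row, and all 9 passed the filter on low counts that left 19424 genes for testing. Polyadenylated RNA of HEK293 Flp-In cells was sequenced in 12 libraries, 3 for each of 4 groups. The first group received a non-targeting siRNA (siNT) and the second an siRNA against TAF5 (siTAF5). The other 2 groups received the TAF5 siRNA and then expressed siRNA-resistant TAF5 from a doxycycline-inducible transgene, in full length (FL) or lacking exon 8 (ΔE8). The label of every sample gives siRNA plus doxycycline as its treatment, with induction starting 24 h after transfection and lasting 48 h.

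P-TEFb is a cyclin-dependent kinase, CDK9 bound to cyclin T1 or cyclin T2, that phosphorylates the C-terminal domain of RNA polymerase II and the pausing factors NELF and DSIF, and so releases paused polymerase into productive elongation. Much of the cell's P-TEFb is held inactive by HEXIM1 on the noncoding 7SK RNA, whose 5′ cap is methylated by MEPCE and whose 3′ end is bound by LARP7. Freed P-TEFb is carried to genes by factors such as the super elongation complex, which is built on the scaffold AFF4 with ELL or ELL2. *HEXIM1* is itself known as a gene whose transcription rises after treatments that release P-TEFb from 7SK. TAF5 is a subunit of TFIID, the factor that binds core promoters before transcription starts.

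*TAF5* RNA was 39.2, 40.5 and 40.2 CPM (counts scaled to the library's effective size and given per M) in the siNT libraries and 6.13, 7.35 and 6.69 CPM in the siTAF5 libraries, a log2 change of -2.56 (SE 0.047, edgeR adjusted p = 2.09e-18). It was 103, 106 and 107 CPM in FL and 87.6, 87.5 and 88.9 CPM in ΔE8, so both transgene groups lay above siNT in *TAF5* counts, FL 2.63-fold and ΔE8 2.20-fold, and ΔE8 lay 1.2-fold below FL. These counts are for the whole gene and do not separate transgene from endogenous RNA. A ΔE8 transcript gives no reads from exon 8, so the folds need not equal those of RNA molecules. Library totals ran from 41.8 to 62.5 M counts. Markers of HEK293 cells were above 1 CPM on average over the 12 libraries, 7 of 7, the lowest being *NEFM* at 1.34 CPM. Their summed levels were 1830 to 1910 CPM in siNT, 2020 to 2110 in siTAF5, 1900 to 1960 in FL and 2180 to 2250 in ΔE8. Of the markers of other cells, 3 of 5 for fibroblasts (*COL1A2*, *DCN*, *LUM*), 2 of 4 for keratin-rich epithelium (*KRT5*, *KRT14*) and 4 of 5 for blood (*PTPRC*, *CD3E*, *CD14*, *HBB*) were under 1 CPM on average over the 12 libraries. The summed level of the epithelial list was 94.3 to 97.3 CPM in siNT and 90 to 95 in FL but 70.1 to 73.7 in siTAF5 and 71.0 to 72.2 in ΔE8. The blood list was likewise 9.31 to 11 CPM in siNT and 9.68 to 10.2 in FL but 6.42 to 7.16 in siTAF5 and 6.61 to 7.73 in ΔE8, and the fibroblast list was 16.9 to 17.5 in siNT, 10.5 to 11.3 in siTAF5, 8.75 to 10.1 in FL and 8.29 to 8.82 in ΔE8. Averaged over the 12 libraries, the epithelial sum was mostly *EPCAM* (75.9 CPM, beside 7.15 for *CDH1*) and the blood sum mostly *HBA1* (8.13 CPM). The fibroblast sum was mostly *COL1A1* (9.2 CPM) and *COL3A1* (2.2 CPM). The epithelial and blood sums, and so mainly *EPCAM* and *HBA1*, had the same high and low groups as *LARP7* below. Their part in the results was not tested. The HEK293 sum is mostly *VIM*, at 1093 CPM in siNT and 1372 in siTAF5. Gene by gene that list had 2 higher and 5 lower after knockdown (median log2 -0.18) and 1 higher and 4 lower when ΔE8 was compared with FL (median -0.12). The labels name 1 TAF5 siRNA and do not state which line carried the siNT and siTAF5 treatments. The stated doxycycline dose also differs between FL and ΔE8, so isoform, line and dose cannot be told apart in that comparison. Where FL or ΔE8 is compared with siNT or siTAF5, transgene, line and *TAF5* level cannot be told apart either. Nothing in the labels says that the 3 libraries of a group came from separate cultures, and p-values then measure only the spread between these libraries, which may be technical.

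*HEXIM1* varied most among the 9 genes. Its RNA was 45.1, 45.7 and 45.7 CPM in siNT and 87.6, 84.0 and 94.6 in siTAF5. With the transgenes it was 60.0, 58.6 and 63.6 CPM in FL and 111, 111 and 113 in ΔE8. No library of any group overlapped with one of another group, and the order was siNT, FL, siTAF5, ΔE8. TAF5 knockdown went with 1.95-fold higher *HEXIM1* RNA, a log2 difference of 0.97 (SE 0.038, edgeR adjusted p = 1.61e-13). In FL *HEXIM1* was 0.55 lower on the log2 scale than in siTAF5 (SE 0.038, edgeR adjusted p = 3.45e-10) but 1.33-fold above siNT (log2 0.42, SE 0.039, edgeR adjusted p = 2.66e-08). In ΔE8 it was not lower than in siTAF5. It was 1.26-fold above siTAF5 (log2 0.33, SE 0.036, edgeR adjusted p = 5.21e-07), 1.84-fold above FL (log2 0.88, SE 0.037, edgeR adjusted p = 1.94e-12) and 2.45-fold above siNT (log2 1.30, SE 0.038, edgeR adjusted p = 1.02e-15). Among 12271 genes with a mean log2 CPM of 2 or more, *HEXIM1* ranked 46 by size of the log2 difference after knockdown and 27 when ΔE8 was compared with FL. As in all bulk samples, a change in the share of cells that express a gene and a change in RNA per cell cannot be told apart.

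**Figure D1:**
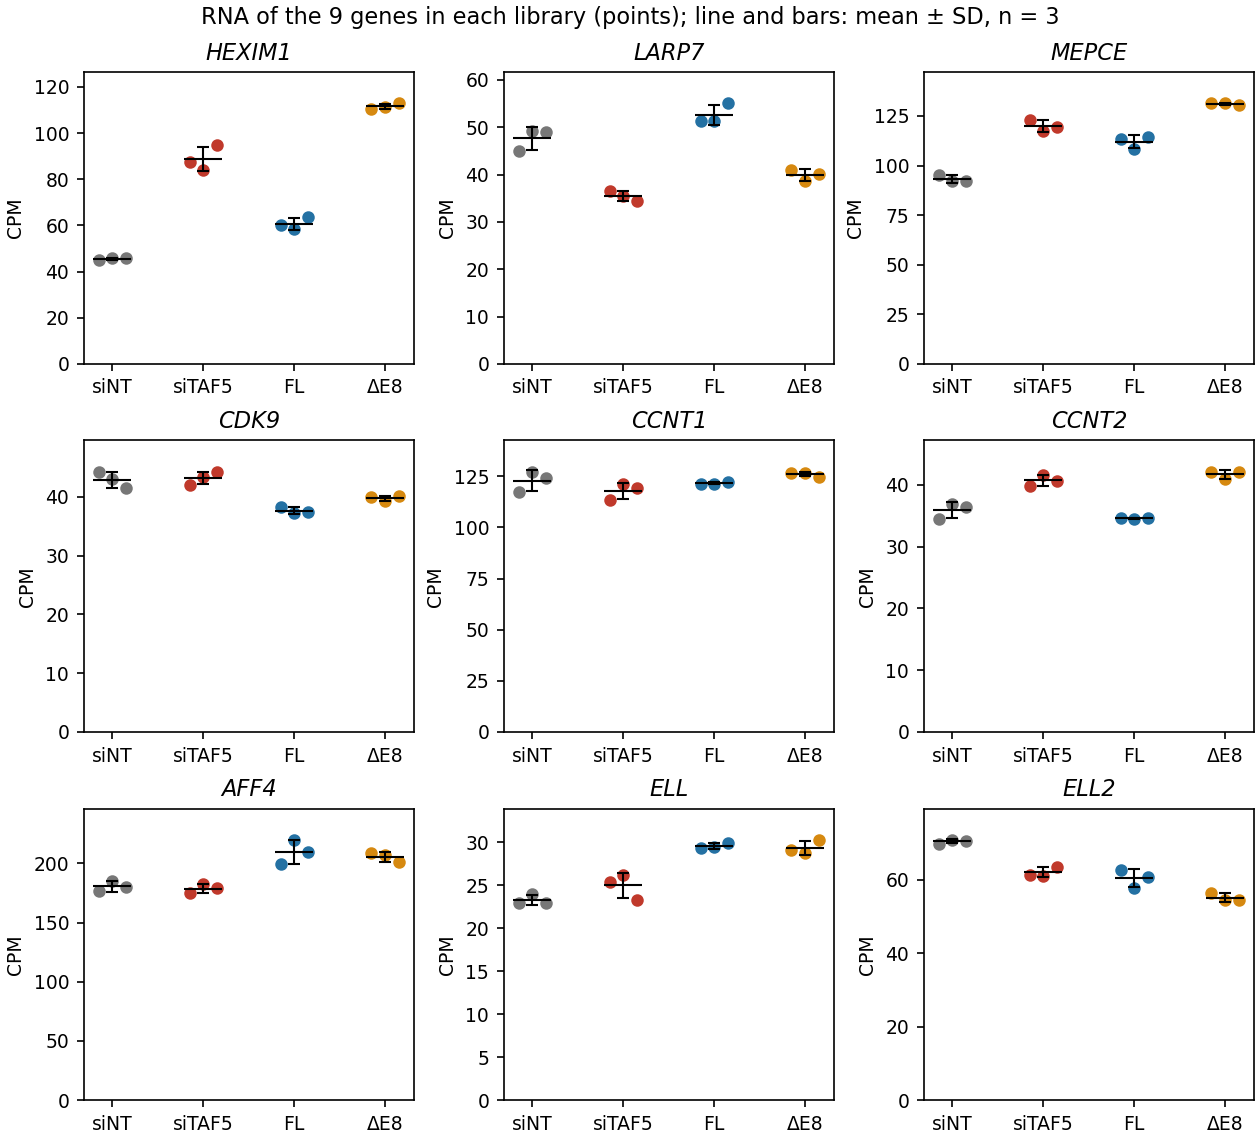
Level of each of the 9 genes (vertical axis, CPM, starting at 0) in the 12 libraries, grouped on the horizontal axis as siNT, siTAF5, FL and ΔE8; each point is 1 library, and the line and bars are the mean and SD of 3. *HEXIM1* separates all 4 groups, from 45.5 CPM in siNT to 112 CPM in ΔE8, *LARP7* is lowest in siTAF5 and ΔE8, and *CCNT1* lies at 118 to 126 CPM in every group.

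*LARP7*, which encodes the La-related protein that binds and stabilises 7SK, moved the other way. It stood at 44.9, 49.1 and 49.1 CPM in siNT and 36.5, 35.6 and 34.5 in siTAF5. FL libraries gave 51.4, 51.3 and 55.0 CPM and ΔE8 libraries 41.1, 38.6 and 40.1. The siTAF5 libraries were the lowest and the FL libraries the highest, with no overlap between groups. *LARP7* fell by 0.43 on the log2 scale in siTAF5 against siNT (SE 0.041, edgeR adjusted p = 3.89e-08) and by 0.40 in ΔE8 against FL (SE 0.041, edgeR adjusted p = 2.54e-07). FL lay 1.48-fold above siTAF5 (log2 0.57, edgeR adjusted p = 7.95e-10) and also slightly above siNT (log2 0.14, SE 0.040, edgeR adjusted p = 0.0061). ΔE8 lay between siTAF5 and siNT, 1.13-fold above the former and 1.2-fold below the latter (edgeR adjusted p = 0.00272 and 1.28e-05).

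*MEPCE*, the 7SK capping enzyme, rose with *HEXIM1* by a smaller amount. It was 95.4, 92.4 and 92.0 CPM in siNT and 123, 117 and 120 in siTAF5. With the transgenes it was 113, 108 and 114 CPM in FL and 131, 131 and 131 in ΔE8. The groups took the same order as for *HEXIM1* and none overlapped. The log2 difference was 0.36 in siTAF5 against siNT (SE 0.028, edgeR adjusted p = 1.62e-09), 0.23 in ΔE8 against FL (SE 0.028, edgeR adjusted p = 2.02e-06) and 0.49 in ΔE8 against siNT (SE 0.028, edgeR adjusted p = 6.96e-12). In FL *MEPCE* was 0.099 lower than in siTAF5 (SE 0.028, edgeR adjusted p = 0.00545) and 0.26 above siNT (SE 0.028, edgeR adjusted p = 1.17e-07). *MEPCE* in FL was thus nearer to siTAF5 than to siNT, while *LARP7* in FL was above siNT. Across the 12 libraries the log2 levels of *HEXIM1* and *MEPCE* had a Pearson correlation of 0.96 and those of *HEXIM1* and *LARP7* of -0.71; these are descriptions over libraries that fall into 4 groups.

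For the kinase itself no difference was detected after TAF5 knockdown. *CDK9* was 44.3, 43.0 and 41.6 CPM in siNT and 42.1, 43.3 and 44.2 CPM in siTAF5, ranges that overlap, with a log2 difference of 0.010 (95% interval -0.058 to 0.079, edgeR adjusted p = 0.823). Both transgene groups were lower, at 38.3, 37.2 and 37.5 CPM in FL and 40.02, 39.33 and 40.10 in ΔE8. FL lay 0.19 below siNT on the log2 scale (difference -0.187, SE 0.034, edgeR adjusted p = 8.22e-05) and ΔE8 0.11 below (difference -0.109, SE 0.033, edgeR adjusted p = 0.00706). Against siTAF5 the differences were -0.20 in FL (edgeR adjusted p = 5.97e-05) and -0.12 in ΔE8 (edgeR adjusted p = 0.00681); without replicate 3 of siTAF5 the ΔE8 difference was -0.095 and no longer passed (edgeR adjusted p = 0.0558, range over the alternatives 0.00147 to 0.0558). ΔE8 and FL did not differ past the threshold (log2 0.078, 95% interval 0.0064 to 0.15, edgeR adjusted p = 0.0819), although their libraries did not overlap.

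The cyclins differed from each other. *CCNT1*, the more abundant of the pair by counts, was the flattest of the 9 genes, with group means that spanned 0.097 on the log2 scale. Its libraries read 117, 127 and 124 CPM in siNT and 113, 121 and 119 in siTAF5. FL libraries gave 121, 121 and 122 CPM and ΔE8 libraries 127, 127 and 125. Its largest difference, ΔE8 above siTAF5 by 0.096 (SE 0.030, edgeR adjusted p = 0.0152), did not pass with upper-quartile scaling, with scaling to library totals or without replicate 1 of siTAF5 (edgeR adjusted p = 0.0672, 0.061 and 0.0643, range over the alternatives 0.00561 to 0.0672). *CCNT1* in siTAF5 against siNT was -0.061 (95% interval -0.12 to 0.0024, edgeR adjusted p = 0.104), a value that passed with upper-quartile scaling (-0.077) and without replicate 1 of siNT (-0.093), replicate 2 of siTAF5 (-0.097), or replicate 1 or 3 of ΔE8 (-0.075 and -0.076), with adjusted p from 0.0127 to 0.497 over the alternatives. *CCNT2*, the alternative cyclin partner, was 34.5, 36.8 and 36.5 CPM in siNT and 39.8, 41.6 and 40.6 in siTAF5. With the transgenes it was 34.6, 34.5 and 34.6 CPM in FL and 42.1, 40.9 and 42.1 in ΔE8. The siTAF5 and ΔE8 libraries were all above the siNT and FL libraries. *CCNT2* was 1.13-fold higher in siTAF5 than in siNT (log2 0.18, SE 0.034, edgeR adjusted p = 0.000164) and 1.21-fold higher in ΔE8 than in FL (log2 0.27, SE 0.035, edgeR adjusted p = 3.9e-06). FL did not differ from siNT past the threshold (-0.056, 95% interval -0.13 to 0.017, edgeR adjusted p = 0.185), nor ΔE8 from siTAF5 (0.034, 95% interval -0.037 to 0.10, edgeR adjusted p = 0.461).

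**Figure D2:**
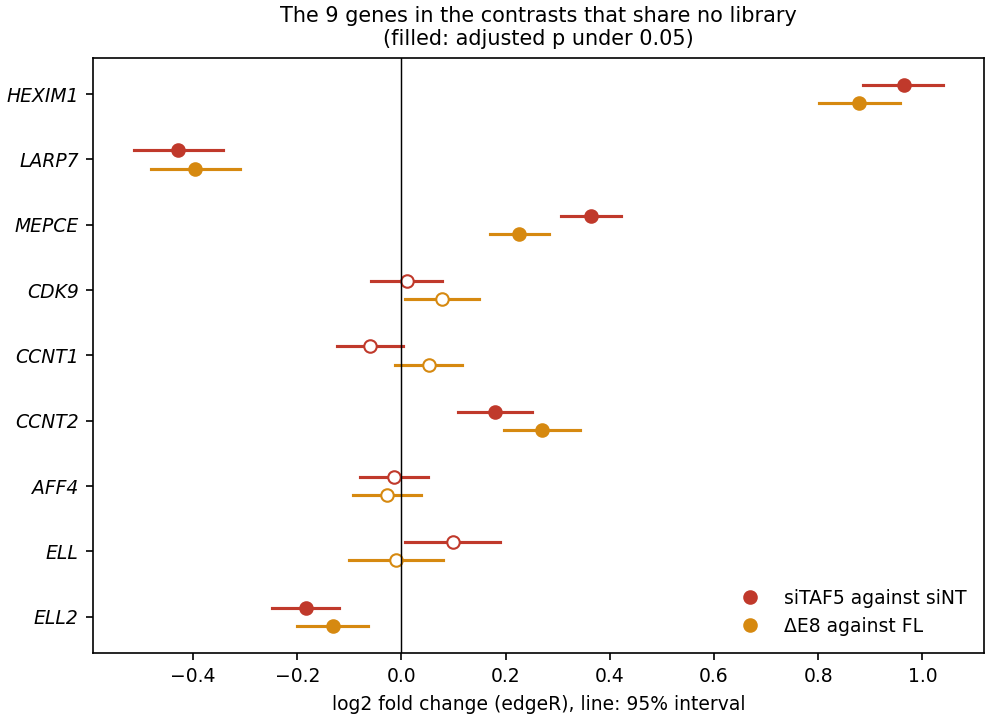
Log2 fold change (horizontal axis) of each of the 9 genes, siTAF5 compared with siNT and ΔE8 compared with FL, 3 libraries a group; lines are 95% intervals and filled points passed an edgeR adjusted p of 0.05. *HEXIM1*, *MEPCE* and *CCNT2* lie to the right of 0 and *LARP7* and *ELL2* to the left in both contrasts.

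In the super elongation complex, *AFF4* and *ELL* were higher in both transgene groups than in siNT and siTAF5. The scaffold gene *AFF4* was 176, 185 and 180 CPM in siNT and 175, 182 and 179 in siTAF5, overlapping ranges (log2 difference -0.014, 95% interval -0.079 to 0.051, edgeR adjusted p = 0.741). It was 200, 220 and 210 CPM in FL and 209, 207 and 201 in ΔE8. Each transgene group was above both groups without one: FL by 0.22 over siNT and 0.23 over siTAF5, ΔE8 by 0.19 and 0.20 (SE 0.031 each, edgeR adjusted p between 3.76e-06 and 2.98e-05). *ELL*, the least counted of the 9, was 22.9, 24.0 and 23.0 CPM in siNT and 25.4, 26.2 and 23.3 in siTAF5. FL libraries gave 29.3, 29.5 and 30.0 CPM and ΔE8 libraries 29.1, 28.7 and 30.3. It was 1.27-fold higher in FL and 1.26-fold higher in ΔE8 than in siNT (log2 0.34 and 0.33, SE 0.043 each, edgeR adjusted p = 1.29e-06 and 1.11e-06). FL and ΔE8 were not told apart for *AFF4* (-0.027, 95% interval -0.092 to 0.038) or *ELL* (-0.010, 95% interval -0.10 to 0.079). *ELL* in siTAF5 was 0.098 above siNT without passing the threshold (edgeR adjusted p = 0.0694); it passed with scaling to library totals (0.13) and without replicate 3 of siTAF5 (0.13), with adjusted p from 0.018 to 0.491 over the alternatives.

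*ELL2*, a relative of *ELL* that can take its place in the complex, was lower in the other 3 groups than in siNT. It was 69.8, 70.8 and 70.6 CPM in siNT and 61.3, 61.1 and 63.5 in siTAF5. With the transgenes it was 62.6, 57.8 and 60.7 CPM in FL and 56.4, 54.5 and 54.3 in ΔE8. Every siNT library was above every other, every ΔE8 library was below every other, and the siTAF5 and FL libraries overlapped. From siNT, *ELL2* fell by 0.18 in siTAF5 (SE 0.031, edgeR adjusted p = 5.27e-05), by 0.22 in FL (SE 0.031, edgeR adjusted p = 5.69e-06) and by 0.35 in ΔE8 (SE 0.031, edgeR adjusted p = 5.75e-09). ΔE8 also lay 0.13 below FL (difference -0.132, SE 0.032, edgeR adjusted p = 0.00284), while FL and siTAF5 differed by -0.037 (95% interval -0.10 to 0.030, edgeR adjusted p = 0.37). Over the 12 libraries the log2 levels of *ELL* and *ELL2* had a Pearson correlation of -0.83, those of *AFF4* and *ELL* of 0.88 and those of *CDK9* and *AFF4* of -0.90, again as a description of libraries in 4 groups.

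**Figure D3:**
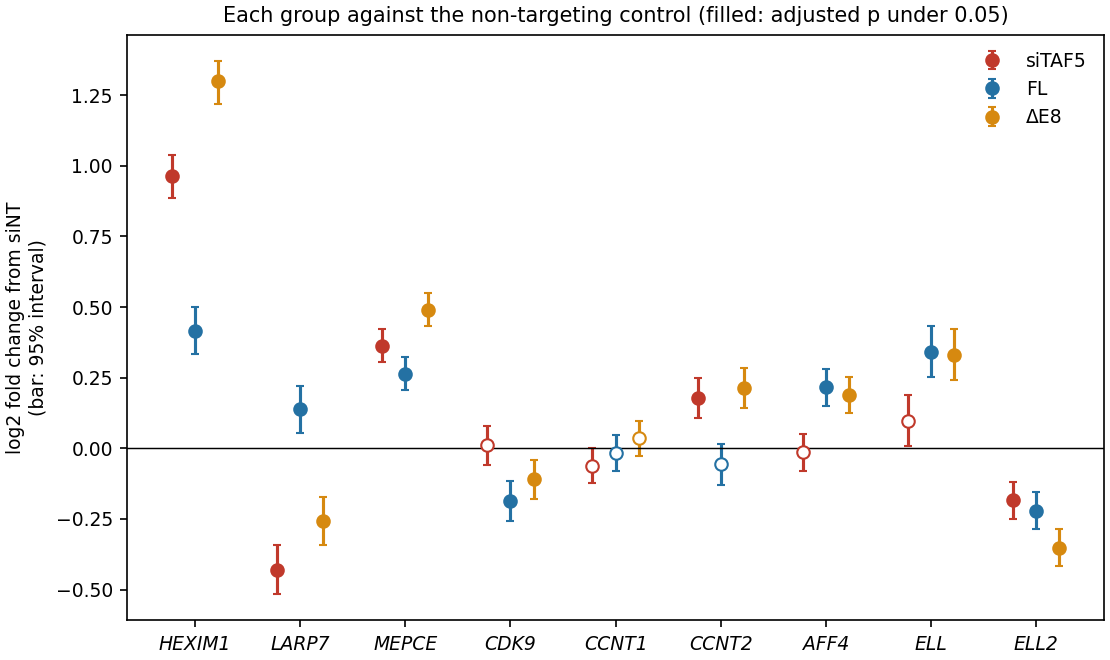
Log2 fold change from siNT (vertical axis) of each of the 9 genes in the siTAF5, FL and ΔE8 groups, 3 libraries each; bars are 95% intervals and filled points passed an edgeR adjusted p of 0.05. The 3 sets of differences share the siNT libraries. *HEXIM1* is highest in ΔE8 at 1.30, *AFF4* and *ELL* pass the threshold in FL and ΔE8, and *ELL2* is lowest in ΔE8 at -0.35.

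Counted by comparison, between 5 and 8 of the 9 genes passed the threshold, and these counts are read against the share of all 19424 tested genes that did. After knockdown (siTAF5 against siNT) 3 were higher (*HEXIM1*, *MEPCE*, *CCNT2*) and 2 lower (*LARP7*, *ELL2*), where 49.7% of all genes were called, 24.7% higher and 25% lower. The share called was larger among genes with more counts, as all 9 have. With a minimum count of 50, 9328 of 15341 genes were called after knockdown. The same 5 had groups that did not overlap, as had 57.3% of all genes. When ΔE8 was compared with FL the same 3 were higher and the same 2 lower, beside 37% of all genes called, 17.3% higher and 19.7% lower, and 7 of the 9 did not overlap beside 45.7%. FL against siTAF5 gave 3 higher (*LARP7*, *AFF4*, *ELL*) and 4 lower (*HEXIM1*, *MEPCE*, *CCNT2*, *CDK9*), beside 48.8% of all genes, 24.4% each way, and 8 without overlap beside 56.3%. In that comparison scaling to library totals changed the split of all called genes from 50.1% higher to 39.3% higher. ΔE8 against siTAF5 gave 6 higher and 2 lower, all but *CCNT2*, beside 40.6% of all genes, 20% higher and 20.6% lower, and 8 without overlap beside 49.9%. FL against siNT gave 5 higher (*HEXIM1*, *LARP7*, *MEPCE*, *AFF4*, *ELL*) and 2 lower (*CDK9*, *ELL2*), beside 54.6% of all genes, 27.8% higher and 26.8% lower, and 7 without overlap beside 59.7%. ΔE8 against siNT gave 5 higher (*HEXIM1*, *MEPCE*, *CCNT2*, *AFF4*, *ELL*) and 3 lower (*LARP7*, *CDK9*, *ELL2*), beside 62.2% of all genes, 30.8% higher and 31.4% lower, and 8 without overlap beside 65.7%. The median size of the log2 difference over the 9 was 0.18 after knockdown and 0.13 between ΔE8 and FL, against 0.19 and 0.15 over all tested genes.

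The contrasts siTAF5 against siNT and ΔE8 against FL share no library, and 5 of the 9 genes (55.6%) were called in the same direction in both, with none in opposite directions. The corresponding share was 38.5% of 65 other genes of transcription elongation and 28% of all 19424 genes. Calls in opposite directions were rare everywhere, with 0 of the 65 and 149 of the 19424. The members and lists were chosen with earlier results of these data known, so these shares carry no test. All genes also include many with fewer counts than the 9. When the contrasts were subtracted from each other in the same fit, *HEXIM1* differed by -0.087 (95% interval -0.20 to 0.024, edgeR adjusted p = 0.326), *LARP7* by 0.033 (-0.088 to 0.15, edgeR adjusted p = 0.776), *CCNT2* by 0.090 (-0.011 to 0.19, edgeR adjusted p = 0.253) and *ELL2* by 0.051 (-0.042 to 0.14, edgeR adjusted p = 0.518). *MEPCE* alone passed the threshold, where 12.2% of all genes did, 5.28% with a higher and 6.96% with a lower value: its rise was 0.14 smaller in ΔE8 against FL than in siTAF5 against siNT (difference -0.137, SE 0.039, edgeR adjusted p = 0.0258). This call was lost when any 1 of 9 libraries was left out, with adjusted p between 0.0146 and 0.135 over the alternatives.

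Set against P-TEFb, the RNA of its inhibitor was higher in siTAF5 than in siNT and in ΔE8 than in FL. The log2 level of *HEXIM1* minus the mean log2 level of *CDK9*, *CCNT1* and *CCNT2* was -0.32, -0.36 and -0.33 in siNT and 0.61, 0.48 and 0.66 in siTAF5. On this scale FL libraries gave 0.14, 0.12 and 0.23 and ΔE8 libraries 0.89, 0.92 and 0.92. The group means were -0.34 ± 0.020, 0.58 ± 0.093, 0.17 ± 0.059 and 0.91 ± 0.020 (SD, n = 3), with no overlap. An exact permutation test over libraries gave p = 0.1 in each of the 6 comparisons. This is the smallest value that 3 against 3 libraries allow. These levels are not corrected for transcript length, so only differences between groups are read from them, and not whether a value lies above or below 0. The difference between siTAF5 and siNT on this scale was 0.92, beside 0.97 for *HEXIM1* alone. Within the 7SK particle, *HEXIM1* had 0.93 to 1.00 counts per count of *LARP7* in siNT, 2.36 to 2.74 in siTAF5, 1.14 to 1.17 in FL and 2.69 to 2.88 in ΔE8. These are ratios of RNA counts; protein and the inactive share of P-TEFb were not measured.

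**Figure D4:**
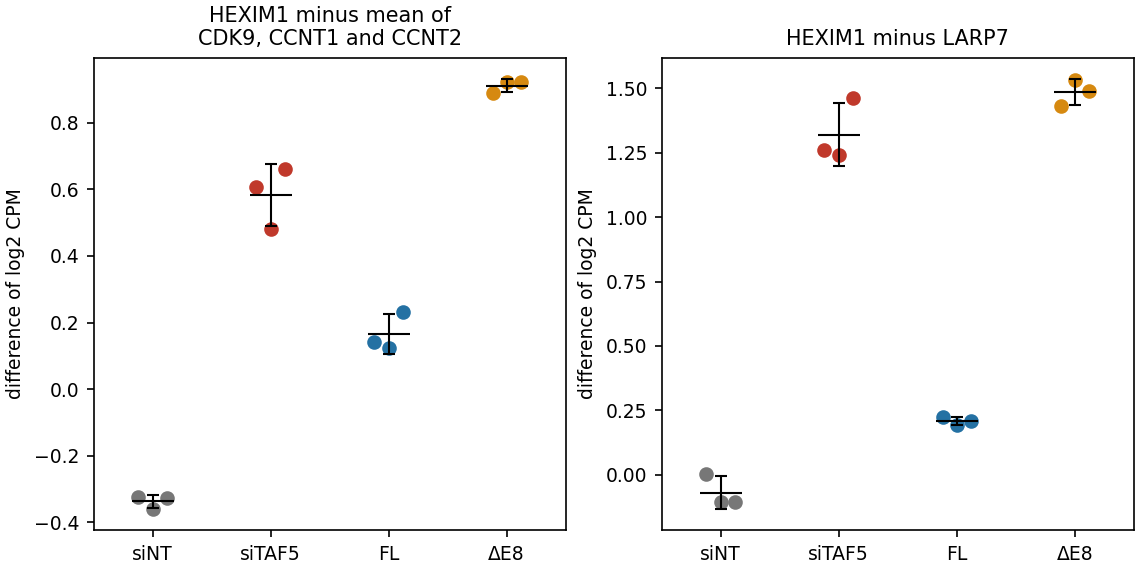
Left, log2 CPM of *HEXIM1* minus the mean log2 CPM of *CDK9*, *CCNT1* and *CCNT2*; right, log2 CPM of *HEXIM1* minus that of *LARP7* (vertical axes), by group on the horizontal axis, without correction for transcript length; points are libraries, and the line and bars are the mean and SD of 3. The left values run from -0.34 in siNT to 0.91 in ΔE8, with FL at 0.17 between siNT and siTAF5.

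Levels were compared between genes per kilobase of transcript, with the length of 1 principal GENCODE transcript a gene. On this scale *MEPCE* was the highest of the 9 in every group, at 30.8 CPM per kb in siNT and 43.2 in ΔE8. *HEXIM1*, an intronless gene with 1 exon and 1 annotated transcript of 3600 bases, went from the sixth at 12.6 CPM per kb in siNT to the second at 24.7 in siTAF5 and 31.0 in ΔE8, and stood at 16.9 in FL. *CCNT2* was the lowest throughout, at 5.00 to 6.03 CPM per kb, next to *ELL* at 5.79 to 7.34. The place of *LARP7*, the second in siNT at 20.9 CPM per kb, depended on the length used: with all its annotated exons joined it was 11.7 and the sixth. Other places moved as well. With joined exons *HEXIM1* had rank 5 in siNT and still rank 2 in siTAF5 and ΔE8, and in FL rank 3 instead of 5. *CCNT1* had rank 2 in siNT instead of 4.

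By position, *HEXIM1* lies at chr17:45148475-45152099 on the plus strand (hg38, as the deposited table gives it), *LARP7* at chr4:112637077-112657696 on the plus strand, *MEPCE* at chr7:100428322-100434126 on the plus strand, and *CDK9* at chr9:127785679-127790792 on the plus strand. *CCNT1* lies at chr12:48688458-48716998 on the minus strand and *CCNT2* at chr2:134918235-134959342 on the plus strand. *AFF4* and *ELL2* lie on the minus strand of chromosome 5, at 132875395-132963634 and 95885098-95961851, and *ELL* at chr19:18442663-18522116 on the minus strand. Some members share bases with genes on the other strand: *HEXIM1* with *HEXIM2-AS1* (0.668 CPM on average), *CCNT2* with *CCNT2-AS1* (2.30 CPM), *LARP7* with *MIR302CHG* (0.163 CPM) and *MEPCE* with *ZCWPW1* (7.28 CPM). The kit keeps strand, but whether counting used it is not stated, so reads could have been shared there.

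Of 12270 other genes with a mean log2 CPM of 2 or more, the 5 whose log2 levels followed *HEXIM1* most closely over the 12 libraries were *SLC25A4*, the mitochondrial ADP/ATP carrier (Pearson r = 0.995), *CLN8* (0.995), *GNPAT* (0.994), *MTCH1* (0.993) and *POLR2A* (0.993). The 5 were picked for the highest r, and the libraries fall into 4 groups, so r is a description and carries no test. *POLR2A* encodes the largest subunit of RNA polymerase II, the substrate of P-TEFb, and had the widest range of the 5: 343 ± 5.1 CPM in siNT, 707 ± 12 in siTAF5, 504 ± 6.0 in FL and 926 ± 25 in ΔE8 (SD, n = 3). *SLC25A4* ran from 47.4 to 80.7 CPM in the same order of groups, *CLN8* from 30.6 to 39.7, *GNPAT* from 104 to 132 and *MTCH1* from 152 to 190 CPM.

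TFIID meets promoters at the core, so the bases from 40 to 11 before the annotated start are shown for the members that rose or fell in both of the contrasts that share no library, and for *POLR2A*. The choice was made after the values and the sequences had been seen. The other genes named above as most like *HEXIM1* are not shown. The sequences are from RefSeq (GRCh38.p14) and read 5′ to 3′ on the strand of the gene, with the letters TATAA in capitals. *ELL2* had no entry in the table, and for *MEPCE* and *LARP7* the first of several listed starts is shown.
HEXIM1: aaaagcttctaTATAAaaggggcgcagagg
MEPCE: cactcgctggtaTATAAgtcggcgtggcgc
POLR2A: gagggcgaatcTATAAgaagcgtcgttcag
CCNT2: gcgccttggcggggagtccgcgagccagga
LARP7: gcccgtctttctcaattgggaccggaaaac

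These windows are chr17:45148435-45148464, chr7:100428750-100428779, chr17:7484326-7484355, chr2:134918782-134918811 and chr4:112637103-112637132, all on the plus strand. The *HEXIM1* window also overlaps an annotated exon of the noncoding gene *AC142472.1* and the *MEPCE* window one of *ZCWPW1*, both on the other strand, and those of *CCNT2* and *LARP7* overlap exons of other annotated transcripts of the same genes. TATAA, searched on the strand of the gene with its first base 40 to 20 bases before the start, was found 29 bases before it in *HEXIM1* and *POLR2A* and 28 bases before it in *MEPCE*. It was found in 2 of the 8 members with an entry, at 2 of their 12 starts, and in 3.91% of 35116 human promoters in the table. The other listed starts of *MEPCE* did not have it. Of 524 tested genes with such a TATAA at a listed start, 28.8% were called higher and 28.1% lower in siTAF5 against siNT, where 27.7% and 28.9% of 12598 genes with an entry were. When ΔE8 was compared with FL, 138 of the 524 (26%) were higher and 112 (21%) lower, against 2498 (20%) and 2911 (23%) of the 12598. In that contrast the share called higher was larger among the genes with TATAA, and the share called lower slightly smaller. The median log2 differences lay near 0 in both sets, at -0.0056 with TATAA and -0.012 over the 12598. After knockdown they were -0.0065 and -0.0069. The 524 are part of the 12598 and include *HEXIM1*, *MEPCE* and *POLR2A*. These shares carry no test. A match is a description of the letters, and gene counts do not show which start was used.

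The wider elongation machinery, 65 genes in 7 lists, gave 26 higher and 13 lower in siTAF5 against siNT and 17 higher and 14 lower in ΔE8 against FL, with median log2 differences of 0.040 and 0.0037 beside 0.00022 and -0.0089 over all tested genes. Over all tested genes 24.7% were higher and 25% lower after knockdown, 49.7% together, and 17.3% and 19.7% in ΔE8 against FL, 37% together. Of 11 other partners of P-TEFb and the super elongation complex, 2 rose and 2 fell after knockdown and 1 rose and 2 fell in ΔE8 against FL, 4 and 3 called beside those 49.7% and 37%. *HEXIM2*, the paralog of *HEXIM1*, was counted far less than it, at 4.22 ± 0.30 CPM in siNT and 6.11 ± 0.24 in siTAF5 (log2 0.54, SE 0.12, edgeR adjusted p = 7e-04), and 5.55 ± 1.2 in FL and 7.17 ± 0.81 in ΔE8 (log2 0.36, edgeR adjusted p = 0.0155). *ELL3*, the third ELL gene, fell by 0.50 and by 0.20 in the same contrasts (edgeR adjusted p = 1.83e-07 and 0.00986), the direction of *ELL2*. *JMJD6* fell by 0.25 after knockdown (edgeR adjusted p = 4.07e-06) and gave -0.046 in ΔE8 against FL (edgeR adjusted p = 0.313). *EAF2*, an ELL-binding protein with 1.83 CPM in siNT, rose by 0.37 after knockdown (edgeR adjusted p = 0.0146) and gave 0.039 in ΔE8 against FL (edgeR adjusted p = 0.83).

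Among the BET proteins, which bind acetylated histones, *BRD2* rose in both contrasts, from 973 ± 12 to 1296 ± 7.1 CPM after knockdown (log2 0.41, edgeR adjusted p = 1.97e-12) and from 812 ± 9.7 CPM in FL to 1297 ± 19 CPM in ΔE8 (log2 0.68, edgeR adjusted p = 3.81e-15). *BRD3* gave 0.027 and 0.0615, neither past the threshold (edgeR adjusted p = 0.443 and 0.0884). Of the 6 NELF and DSIF subunits, 2 rose and 1 fell after knockdown and 2 rose in ΔE8 against FL, near the 49.7% and 37% of all genes called. *SUPT5H*, the large DSIF subunit that P-TEFb phosphorylates, rose by 0.40 and by 0.17 (edgeR adjusted p = 1.42e-11 and 2.75e-06). Its partner *SUPT4H1* rose by 0.24 after knockdown (edgeR adjusted p = 8.56e-07) and gave 0.035 in ΔE8 against FL (edgeR adjusted p = 0.371).

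Integrator, which cleaves the RNA of paused polymerase, had 9 of 14 subunits higher and 3 lower after knockdown and 5 higher and 3 lower in ΔE8 against FL, 12 and 8 called where 49.7% and 37% of all genes were. *INTS5* rose by 0.55 and by 0.34 and *INTS6* by 0.45 and by 0.25, while *INTS13* fell by 0.52 and by 0.19 (edgeR adjusted p at most 7.27e-05). *INTS3* rose by 0.29 after knockdown (edgeR adjusted p = 4.51e-08) and gave 0.0026 in ΔE8 against FL (edgeR adjusted p = 0.954). Of 16 genes of the PAF1 complex and other elongation factors, 6 rose and 3 fell after knockdown and 4 rose and 5 fell in ΔE8 against FL, 9 called each time beside the same 49.7% and 37%. The histone chaperone gene *SUPT6H* rose by 0.28 and by 0.17 (edgeR adjusted p = 1.33e-08 and 1.72e-05). Of 13 other kinases and phosphatases of the C-terminal domain, 5 rose and 3 fell after knockdown and 3 rose and 4 fell in ΔE8 against FL, 8 and 7 called beside 49.7% and 37%. The phosphatase gene *RPAP2* rose by 0.63 and by 0.24 and the phosphatase gene *SSU72* fell by 0.35 and by 0.26 (edgeR adjusted p at most 4.48e-05). In the little elongation complex *ZC3H8* rose by 0.34 and by 0.19 (edgeR adjusted p = 2.12e-05 and 0.00749), *ICE1* fell by 0.077 after knockdown (edgeR adjusted p = 0.0227) and *ICE2* passed in neither contrast.

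**Figure D5:**
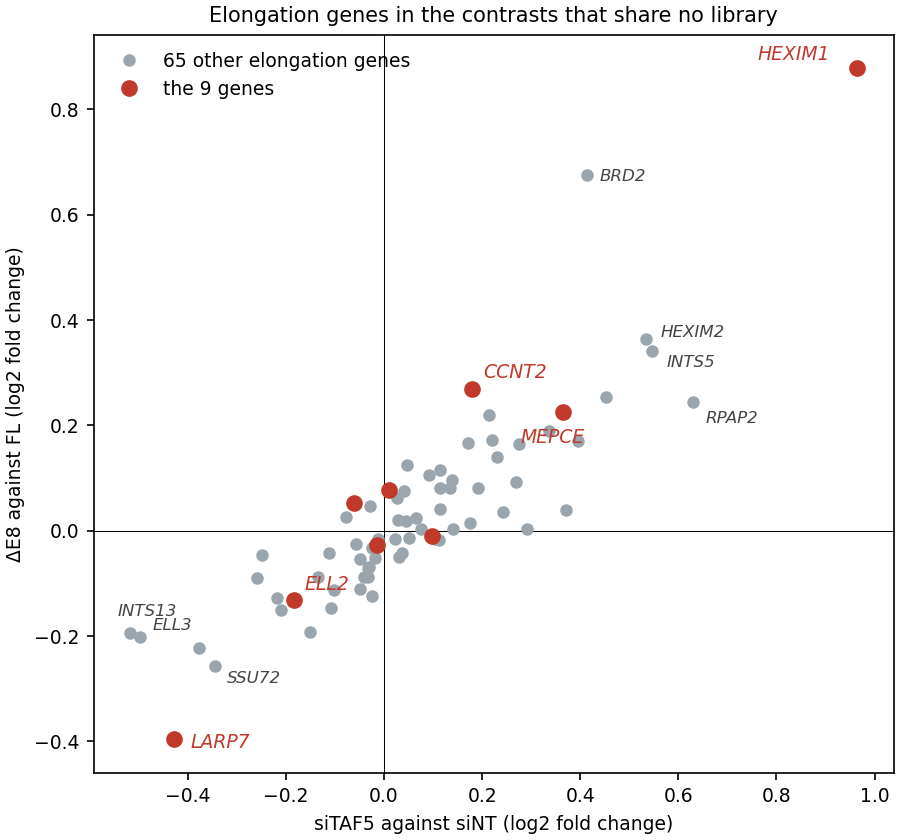
Log2 fold change in siTAF5 against siNT (horizontal axis) and, on the vertical axis, in ΔE8 against FL, of the 9 genes and 65 other elongation genes, each point 1 gene and each contrast 3 against 3 libraries; the contrasts share no library. *HEXIM1* is farthest up and right at 0.97 and 0.88, *BRD2* follows on the vertical axis at 0.68, and *LARP7* is the lowest on the vertical axis at -0.40.

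The 7SK RNA itself has no poly(A) tail and was barely present in these libraries. The table holds it in 2 rows, named 7SK and RN7SK, at 2.67 to 6.43 and 4.19 to 9.72 CPM over the 12 libraries, and how reads were split between near-identical copies is not known. Neither row passed the threshold in siTAF5 against siNT (log2 -0.17 in both, edgeR adjusted p = 0.438 and 0.424) or in ΔE8 against FL (0.12 and 0.04, edgeR adjusted p = 0.611 and 0.87). Both rows were higher than in siTAF5 in FL (0.41 and 0.42, edgeR adjusted p = 0.0471 and 0.0395) and in ΔE8 (0.53 and 0.46, edgeR adjusted p = 0.0132 and 0.0273), but these values do not measure the amount of 7SK in the cells.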

How the data were processed

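The authors deposited 1 table of expected counts (estimated reads per gene, not normalized), of whose values 46.5% were not whole. Tools in the submitters' processing notes are STAR 2.7.0f, cutadapt 1.18, DESeq2 and Partek 10.0.23.0531, and the build is hg38; no source used here states the quantifier, its annotation or its use of strand. The test was planned for counts; values were rounded, changing no library total by more than 91.3. In R 4.3.3, edgeR 4.0.16 fitted the 12 libraries in 1 quasi-likelihood model (filterByExpr minimum count 10, TMM scaling, no block), with 6 two-sided comparisons and 1 difference of contrasts, Benjamini-Hochberg adjustment over 19424 genes and a threshold of 0.05. Rows without a gene name (8010) kept their gene ID. No spike-in was stated, so each change is relative to most other genes. On simulated data with 1 spread for all genes and 200 of 19424 genes changed, 193 of the 200 were called. The real data differ in both, so this is a check of the code and not of power here. Replicate pairs differed by 2.61 to 5.16 chi-square per degree of freedom, more than counting error, and the common coefficient of variation was 2.82%. Alternatives were DESeq2 1.42.0, limma 3.58.1 voom, 3 other scalings, no filter and a minimum of 50, a replicate block, separate fits for each comparison and leaving out each library. The members and lists were chosen with earlier results of these data known. Named genes were the 9, TAF5, up to 4 a list with the smallest adjusted p in siTAF5 against siNT or ΔE8 against FL (lists of up to 5 in full) and the 5 most like the most variable member; 7SK was added after values were seen. Some genes of the lists are not reported here by name.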

Additional observations from a re-analysis of the deposited data

Results flagged for a closer look

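*MEPCE*, the 7SK capping enzyme, was the 1 member of the 9 whose difference was unequal in the contrasts that share no library, by the test of that difference. It rose by 0.36 on the log2 scale in siTAF5 against siNT and by 0.23 in ΔE8 against FL, a difference of -0.137 (95% interval -0.22 to -0.056, edgeR adjusted p = 0.0258). In CPM it went from 93.3 ± 1.9 to 120 ± 2.9 with knockdown and from 112 ± 3.4 in FL to 131 ± 0.46 in ΔE8 (SD, n = 3). The difference kept its sign in every alternative run, and the call was lost without a filter on low counts (-0.121, edgeR adjusted p = 0.0893) and when any 1 of 9 libraries was left out.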

How the results depend on the processing

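In the 6 comparisons, only *CDK9* and *CCNT1* lost a call under any alternative run, as given beside them; over the 9 genes 1101 refitted values kept direction and side of the threshold, 18 reversed, 11 gained a call and 4 lost one. The reversed log2 values lay near 0 and passed in neither fit. With upper-quartile factors they were *CDK9* in siTAF5 against siNT (-0.00589) and *CCNT1* in ΔE8 against siNT (-0.00637). With scaling to library totals they were *AFF4* in siTAF5 against siNT (0.0194), *CCNT1* in FL against siTAF5 (-0.00374) and *ELL* in ΔE8 against FL (0.0164), the last also with a minimum count of 50 (0.000681). *AFF4* in the difference of contrasts was 0.00278 with no filter and 0.00344 with a minimum count of 50. Leaving out 1 library at a time gave -0.0207 to 0.0321 for *CDK9* and -0.0448 to 0.00458 for *AFF4* in siTAF5 against siNT, -0.0634 to 0.0164 for *AFF4* and -0.0258 to 0.0134 for *ELL* in ΔE8 against FL, -0.0488 to 0.00873 for *CCNT1* in FL against siNT and -0.0494 to 0.0456 for *AFF4* in the difference of contrasts. The members called in that difference, 1 (*MEPCE*), were 0 without a filter, 2 with a minimum count of 50 or with DESeq2 (*CCNT1* added) and 0 to 2 with 1 library left out; the cause was not tested. *ELL2* in FL against siTAF5 (-0.0846) and *CDK9* in ΔE8 against FL (0.105) gained a call with library totals, the latter also with a minimum count of 50 (0.0889), and *CCNT2* in FL against siNT with upper-quartile factors (-0.0889). Measured against *CDK9* alone, the balance of *HEXIM1* differed by 0.451 in ΔE8 against siTAF5, 0.799 in ΔE8 against FL, 0.605 in FL against siNT and 1.40 in ΔE8 against siNT, beside 0.328, 0.745, 0.503 and 1.25 with the cyclins included. The labels do not say that a replicate number marks a shared culture or day, and the numbers were not treated as pairs, since not every same-numbered pair was correlated above 0.1: 8 of 18 were (range -0.177 to 0.304). However, 9 of 12 libraries correlated best with their own number, a hint from the data, so pairing is not settled. With the number as a replicate block, 5 members were called after knockdown and 5 between ΔE8 and FL, as without it, and genes called went from 9650 to 9787 and from 7178 to 7409. Other scalings moved the median of all genes by at most 0.048 in size. At these depths each member had over 20 CPM in every library. Small differences are limited by the spread between libraries. For members with fewer counts, such as *ELL* with 1191 in replicate 1 of siTAF5, counting error is a limit too.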
